A study of Mus musculus with 16 samples.

Results

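The hearts described here are those of wild-type littermates in a mouse study of pressure overload, and the comparison is that of 4 left ventricles taken 10 weeks after transverse aortic constriction (TAC) with 4 left ventricles of intact mice. These 8 arrays of the 16 in the series were chosen by their titles, as all those labelled wild-type littermate. TAC is a surgical narrowing of the aortic arch against which the left ventricle must pump. The intact mice, called baseline here, are labelled as controls without surgery and not as sham-operated, so load and surgery cannot be told apart. All mice were on a C57BL/6 N background, each group of 4 held 2 males and 2 females, and the labels used here give no age. The other 8 mice carried nitric oxide synthase 3 (NOS3) from the promoter of the alpha-myosin heavy chain gene, a promoter of cardiomyocytes, and are used here for the shared estimate of the spread and, at the end, for values set side by side. Each array holds RNA of a mid-ventricular ring of 1 mouse, so a changed share of a cell type and a changed amount of RNA per cell cannot be told apart.

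A ventricle under pressure load thickens by enlargement of its muscle cells, re-expresses genes of the fetal heart, lays down collagen between the muscle cells and turns from the oxidation of fatty acids to other fuels. Stretch sensors at the Z-disc and calcium signals feed transcription factors of the muscle cell, and cytokines of the TGF-beta family and fluid forces act on fibroblasts. Natriuretic peptides, released by the strained muscle, relax vessels and make the kidney excrete salt.

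Levels are log2 values of the processed spot signal relative to the 75th percentile of the same array, so they compare a gene between arrays and never 1 gene with another. Values of 4 arrays are given in the order of replicates 1 to 4, of which 1 and 3 are males and 2 and 4 females. A change is the log2 difference TAC minus baseline with its standard error (SE) from limma, and "rose" and "fell" are used for genes with an adjusted p under 0.05 (Benjamini-Hochberg, over all 15667 genes tested). Of these genes 4457 passed, 1707 higher and 2750 lower, which makes 28.4% called, 10.9% called higher and 17.6% called lower. These shares are the background against which the count of every group below has to be read. Of the 4457 called genes 815 changed by over 2-fold, 378 upward and 437 downward, and the median change of all genes was -0.059. All 4 TAC arrays lay above all 4 baseline arrays in 10.2% of the 15573 genes with a value on every array and below them in 17.3%.

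The arrays were alike in brightness: the 75th percentile of the signal lay between 1053 and 1427 on the 8 arrays, and between 51.2% and 55.8% of the probes were well above background. Pairs of arrays correlated across probes at 0.965 to 0.992. Baseline arrays lay on slides 1 and 4 and TAC arrays on slides 2 and 3, in both genotypes. No slide held both baseline and TAC arrays, so slide and load cannot be told apart. With slide as a random block, which cannot separate them, 4059 genes passed. Slide 3, with TAC replicates 3 and 4, was scanned on a second day; with scan day as a block 2695 genes passed, and within the first day, with TAC replicates 1 and 2 alone, 1255. Of the genes named in the text and called, 15 were not called with scan day as a block (Acsl5, Ankrd1, Car3, Cidec, Dio3, Inmt, Ltbp2, Mybpc2, Nos3, Pln, Rbfox2, Sprr1a, Star, Thbs4 and Ube2c) and 84 within the first day, among them Nppa, Myh7, Postn, Ccn2 and Col1a1, all with the same direction. Without TAC replicate 4 the count was 2911. Of the called genes 2605 stayed called whichever of the 8 arrays was left out, among them 672 of the 815 with a change over 2-fold.

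Genes of atrial muscle differed between arrays without regard to the groups. The mean level of 4 genes of atrial muscle, Myl7, Sln, Myl4 and Mybphl, was 4.74, 1.04, 1.88 and -3.92 on the baseline arrays and 3.17, -3.00, 3.11 and -3.30 on the TAC arrays. It was thus high on baseline replicate 1 and on both male TAC hearts, and low on baseline replicate 4 and on both female TAC hearts. Every male heart lay above every female heart, the lowest male at 1.88 and the highest female at 1.04. None of the 4 genes passed the test (Myl7 -1.34 ± 2.76, adjusted p = 0.761). With this level as a covariate, an alternative added after the values were seen, 4674 genes passed. Msln, a gene of the mesothelium that covers the heart, was high on baseline replicate 1 (-0.11) and on TAC replicates 2 (-0.35) and 4 (-0.27) and at -2.57 or below on the other 5 arrays. Fat cell genes were highest on baseline replicate 1, and Plin1, Cidec and Car3 were lower on every TAC array than on any baseline array, as given with the lipid genes below. Their part in other results was not tested.

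**Figure D1:**
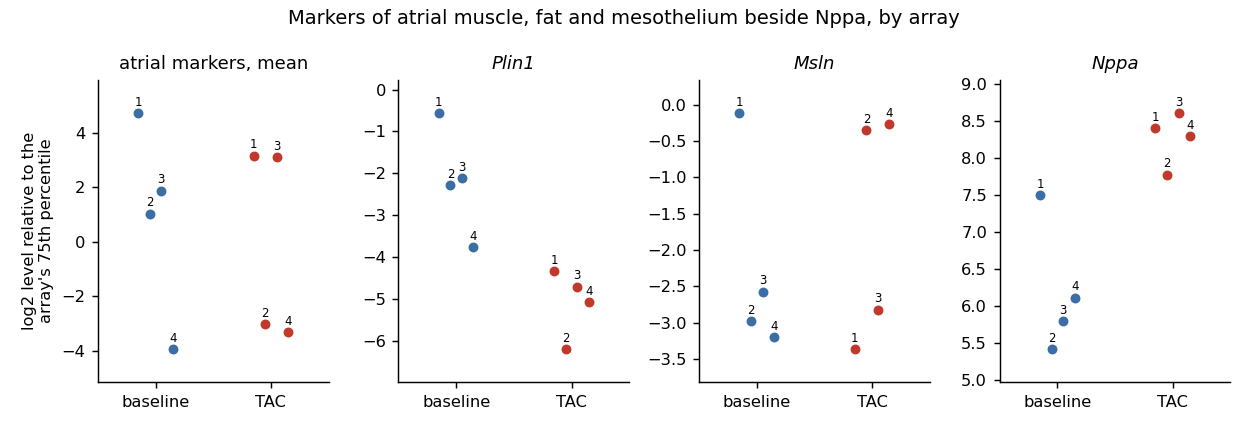
Log2 level relative to the array's 75th percentile (vertical axes) of an atrial muscle marker mean, of the fat cell gene Plin1, of the mesothelial gene Msln and of the natriuretic peptide gene Nppa, one point for each of the 4 baseline and 4 TAC arrays, with the replicate number beside it. The atrial mean spans from -3.92 to 4.74 with both groups spread over most of that range, while the TAC arrays of Nppa all lie above its baseline arrays.

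The promoters of 7 genes from the load, cell cycle and clock groups are shown first. They are shown because the short sequences that load-responsive, cell cycle and clock factors recognise can be read in them, and not for the size of their changes. The calls of Ankrd1, Ube2c and Per3 were lost in some of the alternatives given in the text. Each runs from 250 bases before the annotated start to 50 bases after it, 5′ to 3′ along the gene's strand (RefSeq, GRCm38.p6), with motif matches on either strand in capitals. For the load-responsive genes Nppb (chr4:147985650-147985949, + strand), Acta1 (chr8:123894726-123895025, − strand) and Ankrd1 (chr19:36119795-36120094, − strand) the capitals mark CATTCC, the site of TEAD factors, the CArG box of serum response factor, and AGATAA, a form of the site of GATA factors.
Nppb: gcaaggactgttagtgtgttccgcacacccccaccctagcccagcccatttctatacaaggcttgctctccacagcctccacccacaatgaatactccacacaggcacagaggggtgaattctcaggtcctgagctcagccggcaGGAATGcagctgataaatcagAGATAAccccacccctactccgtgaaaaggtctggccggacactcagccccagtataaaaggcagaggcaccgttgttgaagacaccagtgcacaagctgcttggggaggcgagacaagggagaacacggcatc
Acta1: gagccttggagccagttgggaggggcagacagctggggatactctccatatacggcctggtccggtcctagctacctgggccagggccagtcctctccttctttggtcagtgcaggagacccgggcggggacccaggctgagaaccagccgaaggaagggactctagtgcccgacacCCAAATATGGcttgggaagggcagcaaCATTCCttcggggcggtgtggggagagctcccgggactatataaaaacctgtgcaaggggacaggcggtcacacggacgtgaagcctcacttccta
Ankrd1: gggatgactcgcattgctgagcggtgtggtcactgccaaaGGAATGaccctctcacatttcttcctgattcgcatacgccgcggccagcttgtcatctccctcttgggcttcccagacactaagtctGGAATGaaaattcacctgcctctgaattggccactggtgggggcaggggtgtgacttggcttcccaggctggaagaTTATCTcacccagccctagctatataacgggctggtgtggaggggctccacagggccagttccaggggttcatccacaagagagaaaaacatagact
For the cell cycle genes Cdk1 (chr10:69352863-69353162, − strand) and Ube2c (chr2:164769679-164769978, + strand) the capitals mark TTTGAA, the core of the cell cycle homology region, and CCAAT, the site of the factor NF-Y.
Cdk1: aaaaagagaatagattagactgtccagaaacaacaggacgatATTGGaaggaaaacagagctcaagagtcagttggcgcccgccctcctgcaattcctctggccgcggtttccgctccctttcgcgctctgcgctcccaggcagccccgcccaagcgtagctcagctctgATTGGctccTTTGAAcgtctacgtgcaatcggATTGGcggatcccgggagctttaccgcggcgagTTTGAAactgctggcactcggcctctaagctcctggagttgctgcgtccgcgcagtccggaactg
Ube2c: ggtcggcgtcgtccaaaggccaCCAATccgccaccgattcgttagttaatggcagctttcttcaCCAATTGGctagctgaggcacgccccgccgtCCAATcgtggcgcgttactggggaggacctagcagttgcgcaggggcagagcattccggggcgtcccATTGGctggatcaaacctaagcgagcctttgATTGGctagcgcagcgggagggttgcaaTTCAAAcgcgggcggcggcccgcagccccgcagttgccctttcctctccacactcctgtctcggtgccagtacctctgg
For the clock genes Ciart (chr3:95882179-95882478, − strand) and Per3 (chr4:151044616-151044915, − strand) they mark CACGTG, the E-box that the clock activators bind, and TTATGTAA, the D-box of Dbp, Tef and Hlf.
Ciart: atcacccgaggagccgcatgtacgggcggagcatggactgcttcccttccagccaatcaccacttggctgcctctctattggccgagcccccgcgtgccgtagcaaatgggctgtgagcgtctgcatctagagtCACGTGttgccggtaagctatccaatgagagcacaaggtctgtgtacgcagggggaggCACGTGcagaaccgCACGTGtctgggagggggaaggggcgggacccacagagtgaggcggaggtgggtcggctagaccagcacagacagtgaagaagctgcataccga
Per3: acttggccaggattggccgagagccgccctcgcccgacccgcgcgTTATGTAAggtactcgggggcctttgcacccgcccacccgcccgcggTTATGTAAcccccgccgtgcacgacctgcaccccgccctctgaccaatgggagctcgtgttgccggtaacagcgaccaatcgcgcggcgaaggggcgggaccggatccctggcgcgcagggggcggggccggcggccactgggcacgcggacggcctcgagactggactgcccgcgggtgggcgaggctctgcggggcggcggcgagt
The Nppb window holds 1 CATTCC match and 1 AGATAA match, that of Acta1 1 CArG box and 1 CATTCC match, and that of Ankrd1 2 CATTCC matches and 1 AGATAA match. The Cdk1 window holds 2 TTTGAA and 3 CCAAT matches, the Ube2c window 1 and 6, the Ciart window 3 E-boxes and the Per3 window 2 D-boxes. A match is a run of letters and no evidence of binding. Other forms of the GATA site, such as the unmarked TGATAA of the Nppb window, were not searched.

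The same motifs were counted, on both strands, in all promoters of the same length. Of the 43 cell cycle genes that rose (below), 34 had a promoter in the table, of which 23 (67.6%) held TTTGAA and 28 (82.4%) CCAAT. Among the 10746 measured genes with a promoter the shares were 14.5% and 42.4%, and among all 27025 promoters on file 20.2% and 41.1%. CATTCC stood in 6 of 16 promoters (37.5%) of the risen stretch and Z-disc genes and in 14.8% of those of measured genes. Of 10 fallen clock genes 4 (40.0%) held CACGTG, against 11.5% of measured genes. Shares as high stood in other groups: CACGTG was in 4 of 10 promoters of fallen glycolysis genes and 4 of 4 of fallen ubiquitin ligase and autophagy genes, and CATTCC in 4 of 5 of risen Notch and Hippo genes. The 7 promoters shown all hold matches. Those of Nppa, Ankrd2, Synpo2l, Dbp, Hlf and Arntl, which passed the test as well, held none of the searched motifs of their group in any window on file. The Nppa window holds TGATAA, which was not searched.

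Load-responsive peptides and contractile proteins came first among the changes of the muscle cell. Genes of the natriuretic peptides rose and the gene of the protease that degrades them fell, the skeletal actin gene and the beta-myosin gene rose, and many genes of stretch sensors at the Z-disc rose. Nppb, the gene of B-type natriuretic peptide, whose promoter is printed above, lay at 4.52, 3.89, 4.96 and 4.66 at baseline and 7.75, 6.87, 7.78 and 7.41 after TAC. Nppa, the gene of atrial natriuretic peptide, lay at 7.50, 5.43, 5.80 and 6.12 at baseline and 8.40, 7.78, 8.61 and 8.30 after TAC. In both genes every TAC array was above every baseline array. The gap was narrower in Nppa, in which baseline replicate 1, the array with the highest atrial markers, stood above the other baseline arrays. The rise was 2.94 ± 0.29 (adjusted p = 7.84e-05) in Nppb and 2.06 ± 0.39 (adjusted p = 0.00263) in Nppa. Nppc, the C-type peptide, was not well above background on any baseline array and was so on 2 TAC arrays, at least 1.12-fold higher (adjusted p = 0.00863). Mme, neprilysin, which cleaves these peptides, went from -1.47, -1.32, -1.43 and -1.31 to -3.73, -2.31, -3.59 and -3.10, a fall of 1.80 ± 0.31 (adjusted p = 0.00134). TAC replicate 2 was the closest to baseline in Mme, as in many genes below.

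Among 36 measured genes of the sarcomere filaments 8 rose and 5 fell, with a median change of -0.16. These shares were 22.2% and 13.9%, against 10.9% and 17.6% of all genes. Risen sarcomere genes numbered 4 without TAC replicate 4 and 5 without baseline replicate 2. Fallen sarcomere genes numbered 3 without TAC replicate 4. The median turned positive under quantile normalisation (0.065) and in the authors' deposited values (0.018). Acta1, the skeletal alpha-actin of the fetal heart, lay at 4.81, 4.84, 5.19 and 3.72 at baseline and 7.27, 6.64, 6.83 and 7.64 after TAC. It rose by 2.45 ± 0.33 (adjusted p = 0.000402), with the largest value on TAC replicate 4 and no overlap. Myh7, the slow beta-myosin heavy chain, rose by 0.88 ± 0.22 (adjusted p = 0.00971). Myh6, the fast alpha-chain of the adult mouse ventricle, lay at 7.65, 7.91, 7.84 and 7.81 and 7.52, 7.65, 7.76 and 7.29 and did not pass (-0.25 ± 0.12, adjusted p = 0.14), with its other probe going the opposite way. Mybpc2, the fast-type myosin binding protein C, was at 4.69, 4.67, 4.58 and 4.68 on the TAC arrays, which agree closely, against 3.84, 3.78, 3.66 and 1.97 at baseline, where replicate 4 stood apart (1.34 ± 0.41, adjusted p = 0.0266, adjusted p 0.0526 without TAC replicate 1, 0.0672 without TAC replicate 4 and 0.0592 without baseline replicate 4). In the opposite direction Tnni2, the fast skeletal troponin I, fell from 0.031, 0.42, 0.092 and 0.94 to -1.27, -0.38, -1.31 and -0.75 (-1.30 ± 0.17, adjusted p = 0.000343). Fetal and skeletal isoforms thus moved both ways. Smpx, a small muscle protein, had a 95% interval of -0.17 to 0.23 around its change, within 0.3 on either side of 0.

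Most stretch sensor and Z-disc genes that passed the test were higher: of 38 measured 18 rose and 1 fell, 47.4% against 10.9% of all genes called higher, with a median change of 0.34. Fallen genes of this list numbered 2 without TAC replicate 3 or 4 or baseline replicate 2. Ankrd2, an ankyrin repeat protein that shuttles between the Z-disc and the nucleus, lay at -2.79, -3.21, -2.40 and -2.88 at baseline and 0.47, -1.73, -0.62 and 0.053 after TAC. Its relative Ankrd23 went from 5.52, 4.99, 5.84 and 4.46 to 7.03, 6.58, 7.29 and 7.02. Both rose without overlap, Ankrd2 by 2.36 ± 0.41 (adjusted p = 0.00152) and Ankrd23 by 1.78 ± 0.20 (adjusted p = 0.00015). The third member of that family, Ankrd1, rose by 0.51 ± 0.15 (adjusted p = 0.025) (adjusted p 0.078 without TAC replicate 3 and 0.0747 without baseline replicate 4). Myot, myotilin of the Z-disc, rose by 1.37 ± 0.20 (adjusted p = 0.000582) and Synpo2l, an actin-bundling Z-disc protein, by 1.13 ± 0.12 (adjusted p = 0.000125). Nebl, nebulette, which anchors thin filaments at the Z-disc, fell, from 3.30, 3.34, 3.26 and 3.35 to 2.65, 2.86, 2.79 and 2.42 (-0.63 ± 0.12, adjusted p = 0.00254). Ldb3, a scaffold of the same disc, had a 95% interval of -0.23 to 0.22.

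Rcan1, an inhibitor of calcineurin whose short isoform is itself a calcineurin target, lay at 2.57, 2.44, 2.71 and 2.55 at baseline and 4.80, 3.76, 4.66 and 5.54 after TAC. The 4 baseline arrays lay within a narrow range and the TAC arrays did not, from TAC replicate 2 at the bottom to replicate 4 at the top (2.12 ± 0.32, adjusted p = 0.000641). Of the 23 measured genes of calcineurin signalling 3 rose, a share close to that of all genes. Risen genes of this list numbered 5 without TAC replicate 2. Mef2d and Mef2a, muscle transcription factors downstream of calcium signals, fell by 0.68 ± 0.12 (adjusted p = 0.00198) and 0.60 ± 0.12 (adjusted p = 0.0032), although the other 2 probes of Mef2d went the opposite way. Among cardiac transcription factors Hopx, a homeodomain protein of the heart, fell by 1.06 ± 0.19 (adjusted p = 0.00162). Sox9, a regulator of cartilage matrix genes that is scarce in the healthy ventricle, rose by 1.49 ± 0.32 (adjusted p = 0.00492) with overlap of the groups. Nkx2-5, the cardiac homeobox factor, had a 95% interval of -0.24 to 0.12.

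**Figure D2:**
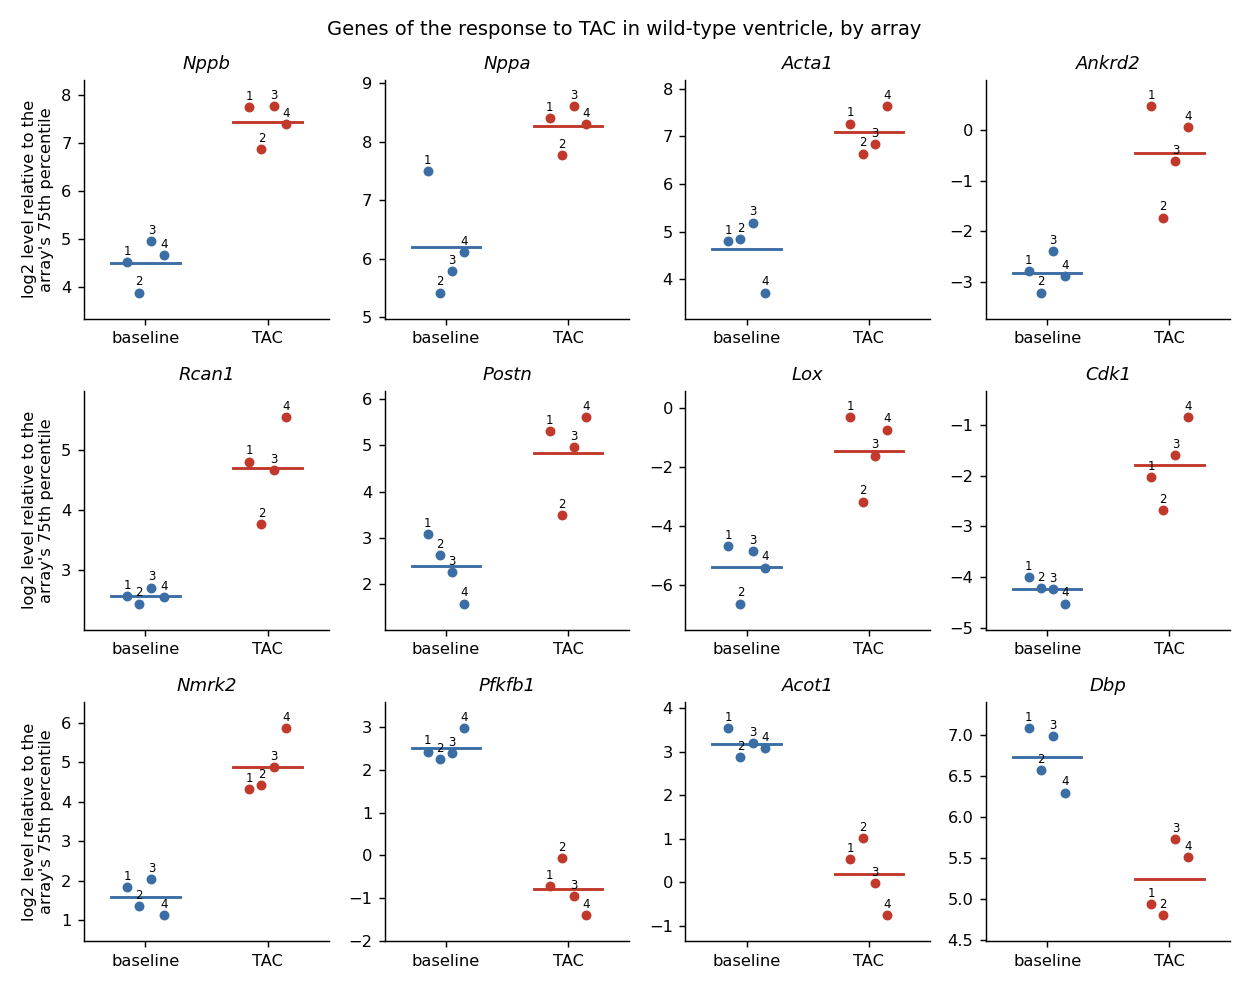
Log2 level relative to the array's 75th percentile (vertical axes) of 12 genes on the 4 baseline and 4 TAC arrays of wild-type ventricle; points are arrays, with the replicate number beside them, and bars are group means. In all 12 genes, taken from those described in the text, every TAC array lies on one side of every baseline array, and TAC replicate 2 is the TAC array closest to the baseline mean in 10 of them.

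Genes of electrical excitation that passed the test were mostly lower. Of 36 measured potassium and pacemaker channel genes 1 rose and 14 fell, 38.9% against 17.6% of all genes called lower. Kcnd2, a pore subunit of the transient outward current that repolarises the mouse ventricle, lay at 2.59, 1.77, 2.21 and 1.72 at baseline and -0.72, 1.51, -0.69 and 0.28 after TAC. Its fall of 1.98 ± 0.45 (adjusted p = 0.00654) was carried by TAC replicates 1, 3 and 4, while TAC replicate 2 sat just below baseline. Kcnv2, a modifier subunit, went from 0.17, 0.31, -0.44 and 0.011 to -2.09, -0.89, -3.62 and -2.71 (-2.34 ± 0.50, adjusted p = 0.00452). Kcnk1, a leak channel, was well above background on all baseline and no TAC arrays, at least 1.35-fold lower (adjusted p = 0.000564).

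Of 42 measured genes of calcium cycling 5 rose and 14 fell (11.9% and 33.3%, against 10.9% and 17.6% of all genes). Risen genes of calcium cycling numbered 1 without TAC replicate 4 or baseline replicate 1 or 2, 2 without TAC replicate 3 or baseline replicate 3 and 3 without TAC replicate 1 or baseline replicate 4. Fallen genes of calcium cycling numbered 8 without TAC replicate 4 or baseline replicate 3 and 9 without TAC replicate 3 or baseline replicate 2. The largest fall was that of Atp2b2, a calcium pump of the plasma membrane, which was well above background on all 4 baseline arrays (-0.91, -2.76, -1.84 and -3.00) and on no TAC array (-4.57, -4.31, -4.30 and -4.93), at least 4.03-fold lower (adjusted p = 0.000322). The pump of the sarcoplasmic reticulum, Atp2a2, lay at 7.15, 7.57, 7.50 and 7.62 at baseline and 7.15, 7.25, 7.29 and 7.03 after TAC, with overlap, and did not pass (-0.28 ± 0.15, adjusted p = 0.193). Its inhibitor Pln, phospholamban, lay at 6.69, 6.92, 6.97 and 7.01 and 6.47, 6.63, 6.63 and 6.28 and fell by 0.39 ± 0.13 (adjusted p = 0.0351), with adjusted p 0.0682 without TAC replicate 1, 0.118 without TAC replicate 4, 0.0701 without baseline replicate 2, 0.0921 without baseline replicate 3 and 0.086 without baseline replicate 4. Trdn, triadin of the calcium release complex, fell by 0.81 ± 0.15 (adjusted p = 0.0025) and Camk2a, a calmodulin kinase subunit, by 0.85 ± 0.18 (adjusted p = 0.00505). Fkbp1a, a binding protein of calcium release channels, rose from 1.92, 2.13, 2.05 and 1.98 to 2.50, 2.38, 2.59 and 2.56 (0.49 ± 0.088, adjusted p = 0.00189). S100a1, a calcium sensor of the muscle cell, had a 95% interval of -0.20 to 0.22. At the intercalated disc Xirp1, an actin-binding repeat protein, rose by 0.92 ± 0.18 (adjusted p = 0.00263), while Fgf13, a partner of sodium channels, fell by 0.86 ± 0.17 (adjusted p = 0.00322) and Ank2, the adaptor ankyrin-B, by 0.75 ± 0.16 (adjusted p = 0.00439). Clic5 and Clic1, chloride channel family proteins, rose by 1.03 ± 0.13 (adjusted p = 0.000265) and 0.84 ± 0.14 (adjusted p = 0.00139), and Slc26a6, a chloride and bicarbonate exchanger, fell by 1.29 ± 0.17 (adjusted p = 0.000309).

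In the matrix, collagen chains, the enzymes that crosslink them, microfibril proteins and matricellular proteins rose together, while several genes of the same groups fell. Of 33 measured collagen chain genes 17 rose (51.5% against 10.9%) with a median change of 0.65. The fibrillar chain Col5a2, which starts collagen fibrils, lay at -0.31, -0.34, -0.21 and -0.58 at baseline and 1.84, 0.40, 1.20 and 2.11 after TAC. Col1a1, the chain of the main fibrillar collagen, went from 4.44, 3.78, 3.90 and 3.20 to 5.49, 4.45, 5.15 and 5.52 and rose by 1.32 ± 0.25 (adjusted p = 0.00274). Col8a1, a short chain that forms networks, went from 4.11, 3.77, 3.80 and 3.45 to 5.84, 4.84, 5.60 and 6.49. Col5a2 and Col8a1 rose least in TAC replicate 2, by 1.75 ± 0.29 (adjusted p = 0.00119) and 1.91 ± 0.32 (adjusted p = 0.00119). Chains known from cartilage rose too: Col9a2 went from -3.87, -3.16, -3.37 and -3.05 to -1.64, -2.86, -1.48 and -0.59 (1.72 ± 0.40, adjusted p = 0.00699), and Col2a1 rose by 2.50 ± 0.37 (adjusted p = 0.000588), but the other probe of Col2a1 went the opposite way. Col23a1, a transmembrane collagen, fell by 0.67 ± 0.12 (adjusted p = 0.0022).

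Of 28 measured genes of collagen processing 14 rose and 4 fell, 50% higher against 10.9% of all genes. Lox, the founding lysyl oxidase, which crosslinks collagen outside the cell, was well above background on all TAC arrays (-0.29, -3.16, -1.60 and -0.71) and no baseline array (-4.66, -6.62, -4.83 and -5.40), at least 7.53-fold higher (adjusted p = 0.000204). Its relatives rose with it: Loxl2 went from 0.75, 0.33, 0.81 and 0.14 to 2.34, 1.10, 1.93 and 2.93 and Loxl1 from 1.87, 1.38, 1.76 and 1.34 to 3.26, 2.21, 3.13 and 3.28. The changes were 1.57 ± 0.29 (adjusted p = 0.00233) and 1.38 ± 0.19 (adjusted p = 0.00046), and that of Loxl3, well above background on 2 baseline arrays, was 2.00 ± 0.39 (adjusted p = 0.003). Inside the cell, P3h4, which acts in collagen modification in the endoplasmic reticulum, fell from 2.25, 2.39, 2.04 and 2.43 to 1.03, 1.21, 1.09 and 1.02 (-1.19 ± 0.12, adjusted p = 8.43e-05). Fkbp10, a collagen chaperone, fell by 0.75 ± 0.18 (adjusted p = 0.00907), and Ppib, a prolyl isomerase of the same complex, had a 95% interval of -0.19 to 0.30.

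Of 24 measured genes of elastic fibres and microfibrils 11 rose and 3 fell. Mfap5, a microfibril glycoprotein, lay at -0.13, -0.22, -0.59 and -0.39 at baseline and 2.88, 1.36, 1.51 and 2.81 after TAC, and Mfap4 went from 2.58, 2.12, 1.32 and 0.97 to 3.97, 3.52, 3.87 and 4.03. Adamtsl2, which binds fibrillin and latent TGF-beta binding proteins, went from -0.93, -0.31, -1.23 and -0.40 to 2.14, 1.29, 1.73 and 2.23. All 3 rose without overlap, by 2.47 ± 0.37 (adjusted p = 0.000641), 2.10 ± 0.41 (adjusted p = 0.00295) and 2.56 ± 0.30 (adjusted p = 0.000187). Ltbp2, a fibrillin-binding protein, rose by 2.87 ± 0.74 (adjusted p = 0.0122) with overlap, its baseline arrays spanning 2.63, 1.50, 0.89 and -0.92. Efemp1, fibulin-3, moved against the group and fell from 2.20, 0.81, 1.44 and 0.62 to -1.26, -0.14, -1.17 and -1.55 (-2.30 ± 0.33, adjusted p = 0.000539). Emilin2 fell by 1.19 ± 0.20 (adjusted p = 0.0011).

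Matricellular proteins, which signal from the matrix more than they build it, rose in 11 of 25 measured cases and fell in 1. Cilp, cartilage intermediate layer protein, lay at 0.90, 0.20, -0.0019 and -1.39 at baseline and 3.85, 1.76, 3.60 and 3.61 after TAC. Postn, periostin of activated fibroblasts, went from 3.08, 2.63, 2.25 and 1.58 to 5.30, 3.50, 4.97 and 5.62, and Thbs4, thrombospondin-4, from 2.35, 1.59, 1.04 and 0.28 to 4.61, 2.21, 3.67 and 3.68. In all 3 the baseline level was highest on replicate 1 and lowest on replicate 4, and TAC replicate 2 was the lowest of the TAC hearts. Cilp rose by 3.28 ± 0.59 (adjusted p = 0.00175), Postn by 2.46 ± 0.48 (adjusted p = 0.00298) and Thbs4, with overlap, by 2.23 ± 0.60 (adjusted p = 0.0148), with adjusted p 0.0503 without TAC replicate 4. Ccn2, connective tissue growth factor, went from 4.78, 4.44, 4.35 and 4.54 to 7.29, 5.74, 6.84 and 6.72, highest in TAC replicate 1, and rose by 2.12 ± 0.38 (adjusted p = 0.00171). Tnc, tenascin-C, which is nearly absent from healthy adult heart, rose by 2.40 ± 0.46 (adjusted p = 0.00277) and was well above background on 2 baseline arrays. Thbs2, thrombospondin-2, fell by 0.91 ± 0.14 (adjusted p = 0.00064). Sparcl1, hevin, had a 95% interval of -0.19 to 0.27.

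Proteoglycans rose in 7 of 28 measured cases. Risen proteoglycan genes numbered 4 without TAC replicate 1 or baseline replicate 3 or 4. Cd44, the hyaluronan receptor, went from 0.62, -0.077, -0.041 and -0.23 to 2.06, 1.74, 1.63 and 2.10, a rise of 1.81 ± 0.18 (adjusted p = 8.77e-05). Vcan, versican, rose by 1.73 ± 0.38 (adjusted p = 0.00515), Bgn, biglycan, by 1.50 ± 0.29 (adjusted p = 0.00286) and Aspn, asporin, by 1.04 ± 0.14 (adjusted p = 0.000377), and Ogn, osteoglycin, fell by 0.81 ± 0.17 (adjusted p = 0.00401). Of 39 matrix proteases and inhibitors 12 rose and 2 fell. Risen genes of proteases and inhibitors numbered 7 without TAC replicate 1 or baseline replicate 3 and 8 without TAC replicate 4. Timp1, an inhibitor of metalloproteinases, lay at 1.49, 0.59, 0.21 and 0.23 at baseline and 3.34, 0.99, 2.85 and 3.88 after TAC, and rose by 2.14 ± 0.52 (adjusted p = 0.00941) although TAC replicate 2 lay within the baseline range. Adamts7, a protease of the matrix, fell by 1.45 ± 0.19 (adjusted p = 0.00036), and Ctsb, cathepsin B, had a 95% interval of -0.22 to 0.14. The receptors that hold cells to this matrix followed in 12 of 33 measured genes. Risen integrin and adhesion genes numbered 8 without TAC replicate 1 or baseline replicate 2 or 3. Itga9 rose by 1.22 ± 0.16 (adjusted p = 0.000386) and Itga5, of the fibronectin receptor, by 1.14 ± 0.14 (adjusted p = 0.000237), and Itga8 fell by 1.31 ± 0.33 (adjusted p = 0.0111).

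Among ligands and antagonists of the TGF-beta superfamily 11 of 33 measured genes rose and 7 fell. Gdf15, a cytokine released by stressed cells, lay at -1.89, -1.04, -1.11 and -1.23 at baseline and 2.38, 0.54, 1.31 and 3.83 after TAC. It rose by 3.33 ± 0.58 (adjusted p = 0.00152), and its TAC values differed more than those of most genes, from replicate 2 at the low end to replicate 4 at the high end. Tgfb2, the TGF-beta2 ligand, went from -0.64, -1.42, -1.12 and -1.73 to 0.47, -0.44, -0.14 and 0.70 (1.37 ± 0.26, adjusted p = 0.00239), and Fstl1, a secreted follistatin-like protein, rose by 1.69 ± 0.27 (adjusted p = 0.00086). Gdf10 fell by 1.50 ± 0.27 (adjusted p = 0.00189) and Tgfbr3, the co-receptor betaglycan, by 1.24 ± 0.29 (adjusted p = 0.00721).

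Other growth factor families moved both ways. Of 28 measured genes of FGF and EGF signalling 6 rose and 7 fell (21.4% and 25%, against 10.9% and 17.6% of all genes). Risen genes of this list numbered 4 without TAC replicate 4. Fgf16, a growth factor made by heart muscle, went from 0.44, 0.52, 0.82 and 0.30 to -2.00, -1.07, -0.96 and -1.63 (-1.94 ± 0.26, adjusted p = 0.000419). Fgf6, another ligand, well above background on 1 baseline and 4 TAC arrays, rose by 2.32 ± 0.39 (adjusted p = 0.00124). Spry4, a feedback inhibitor of these receptors, rose by 1.83 ± 0.20 (adjusted p = 0.000129), and Egf fell by 1.57 ± 0.32 (adjusted p = 0.00369). In the insulin-like growth factor axis 5 of 19 rose and 2 fell: Igfbp6 rose by 0.99 ± 0.21 (adjusted p = 0.00417) and Grb14, an adaptor that restrains the insulin receptor, fell by 1.01 ± 0.14 (adjusted p = 0.000405). Cdkn1a, the cell cycle inhibitor p21, rose from -1.11, -0.92, -1.33 and -0.48 to 1.37, 0.23, 0.41 and 1.18 (1.76 ± 0.38, adjusted p = 0.00489). Of 25 immediate early genes 6 rose and 5 fell. Risen immediate early genes numbered 4 without baseline replicate 2 or 4. Fallen ones numbered 3 without TAC replicate 4 or baseline replicate 1 or 2. Egr2 rose by 1.84 ± 0.36 (adjusted p = 0.00305) and Nr4a1, a nuclear receptor induced by many stimuli, fell by 1.37 ± 0.24 (adjusted p = 0.00167).

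Cell cycle genes rose in larger share than any other list examined, 43 of 72 measured (59.7% against 10.9%), with a median change of 1.11. The size of that median depended on the background correction. With normexp background correction it was 0.64, and 35 of the genes rose, against 1059 of all 15667 genes. Cdk1, the kinase that starts mitosis, lay at -4.00, -4.21, -4.24 and -4.53 at baseline, not well above background, and at -2.03, -2.69, -1.60 and -0.84 after TAC, well above it on every array. It was at least 5.37-fold higher (adjusted p = 0.0021), Pbk, a mitotic kinase, at least 5.65-fold (adjusted p = 0.00279) and Bub1, of the spindle checkpoint, at least 2.09-fold (adjusted p = 0.00249). The order of the TAC hearts was the same in Cdk1, Pbk and Bub1: replicate 2 lowest and replicate 4 highest. Ube2c, a ubiquitin-conjugating enzyme of mitotic exit whose promoter is printed above, rose by 2.63 ± 0.71 (adjusted p = 0.0159), with adjusted p 0.0589 without TAC replicate 4. Cenpf, a protein of the kinetochore, moved against its list and fell from 2.79, 2.59, 2.00 and 2.42 to -0.10, 0.66, 0.086 and 0.64 (-2.13 ± 0.25, adjusted p = 0.000215), with its other probe going the same way. Cdk2, of S-phase entry, fell by 0.69 ± 0.15 (adjusted p = 0.00542), and Pcna, the sliding clamp of replication, had a 95% interval of -0.28 to 0.23. These levels do not say which cells of the ventricle held the transcripts.

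**Figure D3:**
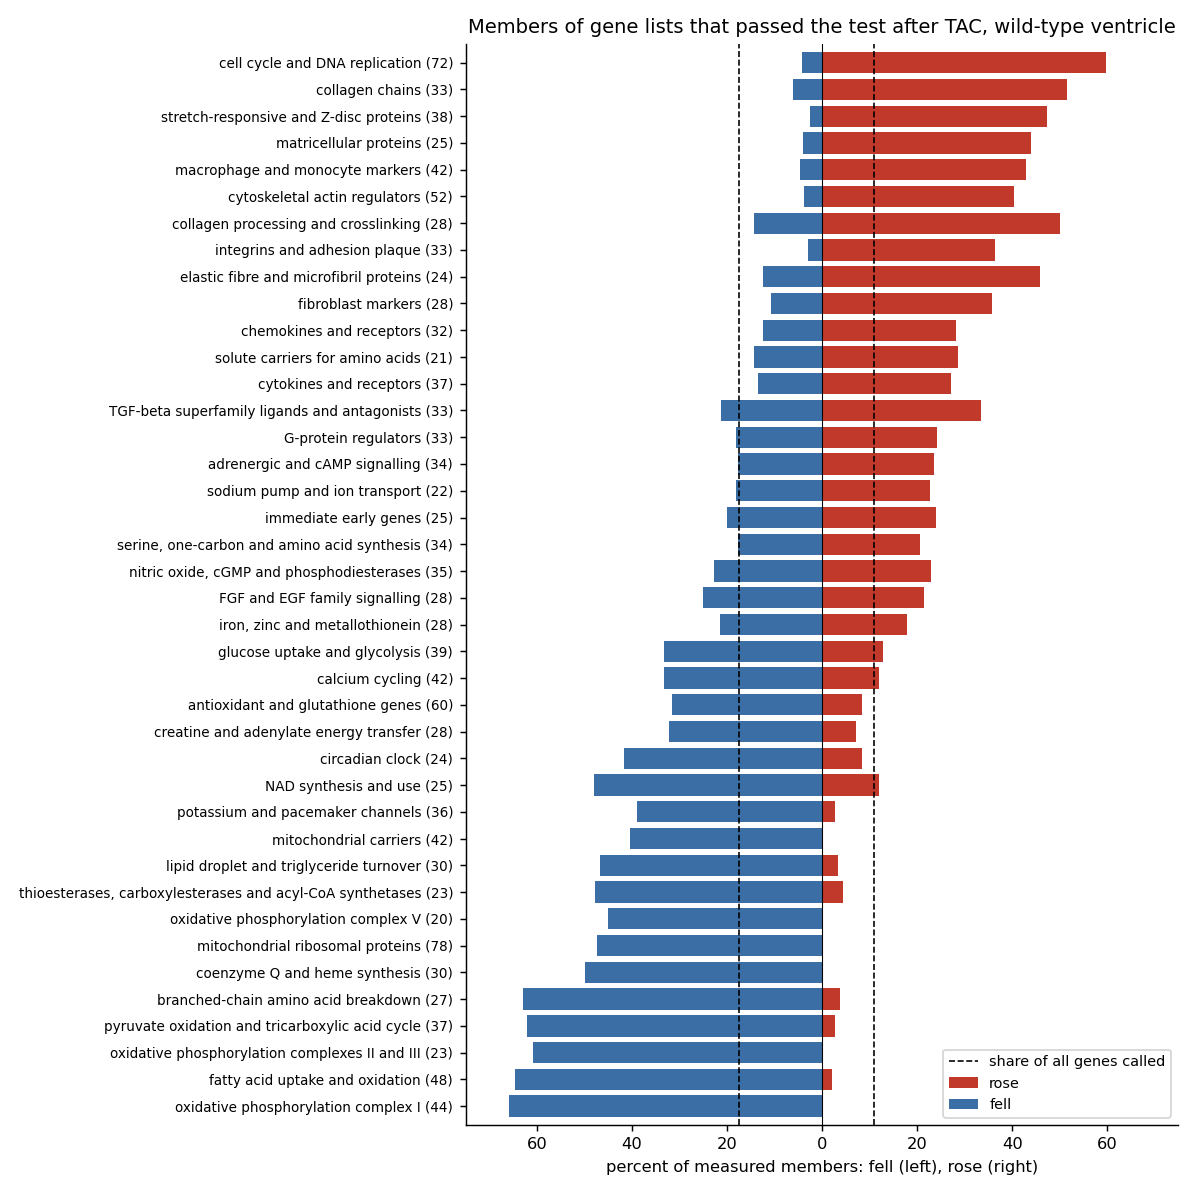
Share of measured members that rose (right of 0) and fell (left of 0) after TAC, in percent, for 40 gene lists, each with its number of measured genes; the vertical lines mark 10.9% called higher and 17.6% called lower among all genes. Cell cycle genes, collagen chains, collagen processing and stretch-responsive genes reach farthest to the right, and respiratory complex I, fatty acid oxidation and branched-chain amino acid breakdown farthest to the left.

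The metabolic genes fell across fuels and across steps. Fatty acid uptake and oxidation had 31 of 48 measured genes lower (64.6% against 17.6%) and 1 higher, with a median change of -0.59. Slc27a1, which brings fatty acids into the cell, lay at 3.00, 3.36, 3.21 and 3.54 at baseline and 2.42, 2.12, 2.18 and 1.64 after TAC. Ech1, an isomerase of mitochondrial and peroxisomal oxidation, went from 7.01, 7.26, 7.19 and 7.39 to 6.19, 6.28, 6.17 and 5.87. Both fell without overlap, by 1.19 ± 0.17 (adjusted p = 0.000473) and 1.09 ± 0.17 (adjusted p = 0.000755), and replicate 4 was the lowest TAC heart in each. Slc25a20, the carnitine carrier of the inner mitochondrial membrane, fell by 0.96 ± 0.14 (adjusted p = 0.000582) and Ucp3, an uncoupling protein, by 1.71 ± 0.35 (adjusted p = 0.00398). Acsl5, an acyl-CoA synthetase, was the member that rose (0.56 ± 0.15, adjusted p = 0.0138), and Acsl3, of the same family, had a 95% interval of -0.24 to 0.16.

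Esterases, thioesterases and synthetases of fatty acyl groups held some of the largest changes. Of 23 measured genes 11 fell, 47.8% against 17.6%. Acot1, an acyl-CoA thioesterase, lay at 3.54, 2.86, 3.20 and 3.07 at baseline and 0.52, 1.01, -0.024 and -0.75 after TAC. Ces1d, a carboxylesterase that hydrolyses triglyceride, went from 3.46, 3.88, 3.45 and 3.87 to 0.093, 2.17, -0.35 and 0.96, and Acsm5, a mitochondrial acyl-CoA synthetase, from 0.014, -1.02, -0.35 and -0.80 to -3.02, -2.60, -3.70 and -4.19. These falls, of 2.98 ± 0.36 (adjusted p = 0.000237), 2.95 ± 0.35 (adjusted p = 0.00022) and 2.84 ± 0.35 (adjusted p = 0.000251), were smallest in TAC replicate 2 in all 3 genes. Ces5a, another carboxylesterase, was well above background on every TAC array (-1.74, -3.66, -2.06 and -2.29) and no baseline array (-5.63, -6.35, -5.51 and -6.56), at least 3.77-fold higher (adjusted p = 6.62e-05). Genes coding for Acot and Ces proteins lie in clusters of near-identical copies, so a probe may read more than 1 of them.

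Lipid droplet genes fell in 14 of 30 measured cases, a count that was 9 without TAC replicate 4. Fitm1, which forms droplets in muscle, went from 5.15, 5.17, 5.02 and 5.13 to 3.92, 4.39, 4.08 and 3.68 (-1.10 ± 0.13, adjusted p = 0.000215), and Dgat2, which makes triglyceride, fell by 1.02 ± 0.21 (adjusted p = 0.00412). Plin1, the droplet coat protein of fat cells, lay at -0.55, -2.28, -2.12 and -3.76 at baseline and was not well above background on any TAC array (-4.33, -6.19, -4.70 and -5.08), at least 3.90-fold lower (adjusted p = 0.00576). Cidec and Car3, further fat cell genes, lay at 1.20, -0.41, -0.72 and -2.35 and 0.73, -0.24, -0.50 and -2.19 at baseline and at -2.63, -3.62, -3.00 and -3.43 and -2.89, -3.72, -2.50 and -3.78 after TAC. The groups did not overlap in any of the 3. All 3 were highest on baseline replicate 1 and lowest of the baseline arrays on replicate 4. Of 13 measured fat cell markers 5 fell and 0 rose, with a median change of -0.89. Fallen fat cell markers numbered 2 without TAC replicate 4 and 3 without TAC replicate 1, 2 or 3 or baseline replicate 1, 2 or 3. Pparg, which directs fat cell differentiation, had a 95% interval of -0.22 to 0.21. The calls of Cidec (-2.60 ± 0.87) and Car3 (-2.68 ± 0.88) were lost without any of the baseline replicates 1, 2 and 3 and of the TAC replicates 1 to 4, at adjusted p-values between 0.0618 and 0.118 for Cidec and between 0.0517 and 0.102 for Car3. How far the amount of fat on the ring moved these genes was not tested.

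Genes of glucose metabolism that passed the test were more often lower than higher. Pfkfb1, which sets the level of the glycolytic activator fructose 2,6-bisphosphate, went from 2.43, 2.26, 2.41 and 2.98 to -0.71, -0.064, -0.96 and -1.39. Fbp2, the muscle fructose bisphosphatase, which opposes glycolysis, went from 1.99, 2.00, 1.94 and 2.14 to 0.30, 0.23, -0.17 and -1.29. These 2 genes fell by 3.30 ± 0.41 (adjusted p = 0.000248) and 2.25 ± 0.34 (adjusted p = 0.000658). Pfkp, the platelet-type phosphofructokinase, rose from 1.20, 1.20, 1.30 and 1.27 to 2.45, 2.08, 2.43 and 3.17 (1.29 ± 0.17, adjusted p = 0.000373). Of 39 measured genes of glucose uptake and glycolysis 5 rose and 13 fell, 33.3% against 17.6%. Risen genes of this list numbered 3 without TAC replicate 1 or 4 or baseline replicate 2 or 3. Fallen ones numbered 8 without baseline replicate 4. Lactate dehydrogenase A, Ldha, and hexokinase 1, Hk1, had 95% intervals of -0.20 to 0.15 and -0.18 to 0.21.

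Pyruvate oxidation and the tricarboxylic acid cycle had 23 of 37 genes lower (62.2%). Gpt, alanine aminotransferase, which links pyruvate and amino groups, went from 3.44, 3.41, 3.39 and 3.51 to 1.85, 2.08, 1.90 and 1.34 (-1.65 ± 0.17, adjusted p = 8.7e-05), and Gpt2, its mitochondrial relative, fell by 1.09 ± 0.14 (adjusted p = 0.000265). The 4 baseline values of Gpt lay close together, and TAC replicate 4 was the lowest. Breakdown of branched-chain amino acids had 17 of 27 genes lower, with falls of 1.07 ± 0.18 (adjusted p = 0.00139) for Bckdhb, a subunit of the rate-setting dehydrogenase, and 1.18 ± 0.23 (adjusted p = 0.0028) for Ppm1k, its activating phosphatase. Bckdk, the kinase that inhibits the same dehydrogenase, had a 95% interval of -0.28 to 0.24. Slc7a5, an importer of these amino acids, rose by 1.18 ± 0.17 (adjusted p = 0.000588).

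Of 19 measured genes of ketone use and monocarboxylate transport 2 rose and 7 fell. Risen genes of this list numbered 1 without TAC replicate 1 or 4 or baseline replicate 2, 3 or 4. The transporters Slc16a6 and Slc16a11 parted, the former rising by 1.15 ± 0.15 (adjusted p = 0.000377) and the latter falling by 1.25 ± 0.19 (adjusted p = 0.000724), and Slc16a1, the lactate transporter MCT1, had a 95% interval of -0.12 to 0.28. In glycogen turnover 2 of 26 genes rose and 6 fell, 23.1% against 17.6% of all genes called lower. Risen glycogen genes numbered 1 without TAC replicate 1, 3 or 4 or baseline replicate 2, 3 or 4. Fallen glycogen genes numbered 4 without TAC replicate 4. Phkg1, the catalytic subunit of phosphorylase kinase in muscle, went from -1.14, -1.87, -1.83 and -1.60 to -3.75, -2.51, -3.71 and -3.60 (-1.78 ± 0.34, adjusted p = 0.00261). Ppp1r3c, which targets a phosphatase to glycogen, rose from 2.50, 2.83, 2.77 and 2.96 to 3.63, 3.39, 3.97 and 3.53 (0.86 ± 0.13, adjusted p = 0.000764). Of 28 measured genes of creatine, adenylate and AMPK 2 rose and 9 fell. Risen ones numbered 0 without TAC replicate 1 or 3 or baseline replicate 1, 2, 3 or 4, 1 without TAC replicate 4 and 4 without TAC replicate 2. The fallen ones numbered 4 without TAC replicate 3 or baseline replicate 3, 5 without baseline replicate 1 or 2 and 6 without TAC replicate 4 or baseline replicate 4. Ak1, adenylate kinase, fell by 0.51 ± 0.093 (adjusted p = 0.00197) and Prkab1, a subunit of the energy sensor AMPK, by 0.61 ± 0.10 (adjusted p = 0.00135).

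In the respiratory chain the falls were small, and they were numerous outside complex IV. Of 44 measured genes of complex I 29 fell and 0 rose, a count that was 17 without TAC replicate 4. Ndufs1, the largest subunit of its peripheral arm, lay at 7.16, 7.27, 7.23 and 7.36 at baseline and 6.66, 6.84, 6.68 and 6.35 after TAC, a change of -0.63 ± 0.12 (adjusted p = 0.00269). Complexes II and III had 14 of 23 genes lower, a count that was 9 without baseline replicate 4. Sdhc, a membrane anchor of complex II, went from 5.55, 5.85, 5.75 and 5.91 to 5.00, 5.07, 4.94 and 4.88 (-0.79 ± 0.097, adjusted p = 0.000237). Complex IV had 8 of 30 lower, 26.7% against 17.6% of all genes called lower. It had 2 lower without TAC replicate 4, 3 without baseline replicate 4 and 5 without baseline replicate 2. Its copper-related assembly gene Cox19 rose, from 3.44, 3.24, 3.41 and 3.30 to 4.00, 3.86, 3.98 and 4.23 (0.67 ± 0.091, adjusted p = 0.000413). Complex V, the ATP synthase, had 9 of 20 lower, a count that was 5 without TAC replicate 4, such as Atp5g2, a gene of the ring subunit (-0.55 ± 0.10, adjusted p = 0.00223). Median changes were -0.34, -0.33, -0.19 and -0.30 for complexes I, II with III, IV and V, against -0.059 over all genes. Under quantile normalisation these medians were -0.20, -0.22, -0.095 and -0.11, against -0.018 over all genes. The fallen genes then numbered 22, 11, 4 and 6, against 2336 of all 15667 genes tested.

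Around the chain, 15 of 30 genes of coenzyme Q and heme synthesis fell, as did 17 of 42 mitochondrial carriers, and 0 rose in either list. Alad, of heme synthesis, fell by 0.84 ± 0.12 (adjusted p = 0.000528) and Coq8a, needed for coenzyme Q, by 0.55 ± 0.13 (adjusted p = 0.00737). Ribosomal protein genes of the mitochondrion and of the cytosol stand side by side here: 37 of 78 mitochondrial ones fell, with a median change of -0.25, and 6 of 84 cytosolic ones, with a median of -0.065. Fallen cytosolic ones numbered 1 without TAC replicate 4, 2 without baseline replicate 2, 3 or 4 and 4 without TAC replicate 1 or baseline replicate 1. The cytosolic median turned positive under quantile normalisation (0.071) and in the authors' deposited values (0.043). Of the cytosolic ones 37 had a 95% interval within 0.3 of 0, among them Rpl35a (-0.17 to 0.16), as had 19 of the mitochondrial ones. Mrpl14 of the large mitochondrial subunit went from 6.35, 6.31, 6.25 and 6.40 to 5.70, 5.85, 5.65 and 5.59 (-0.63 ± 0.091, adjusted p = 0.000571). The proteasome had 3 genes up and 7 down of 45 (6.67% and 15.6%, near the 10.9% and 17.6% of all genes). It had 18 members within that interval, and under quantile normalisation 7 rose and 3 fell. Risen proteasome genes numbered 1 without TAC replicate 3 or baseline replicate 1, 2 or 3 and 2 without TAC replicate 1 or 4. Fallen proteasome genes numbered 2 without baseline replicate 2 or 4, 3 without TAC replicate 4 or baseline replicate 3 and 4 without TAC replicate 3.

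Genes of mitochondrial upkeep fell with them: 19 of 51 genes of dynamics, import and mitochondrial DNA fell and 0 rose. Fallen genes of this list numbered 10 without TAC replicate 4 and 11 without baseline replicate 2, 3 or 4. Polg2, of the mitochondrial DNA polymerase, lay at 0.15, 0.22, 0.068 and 0.18 at baseline and -0.40, -0.33, -0.46 and -0.57 after TAC, a fall of 0.59 ± 0.070 (adjusted p = 0.000201) with little spread in either group. Oma1, a protease that clips the fusion factor OPA1, fell by 0.61 ± 0.13 (adjusted p = 0.0038), Tomm40, the import pore, by 0.51 ± 0.094 (adjusted p = 0.00202) and Tomm7, a small subunit of the same pore complex, had a 95% interval of -0.19 to 0.15.

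**Figure D4:**
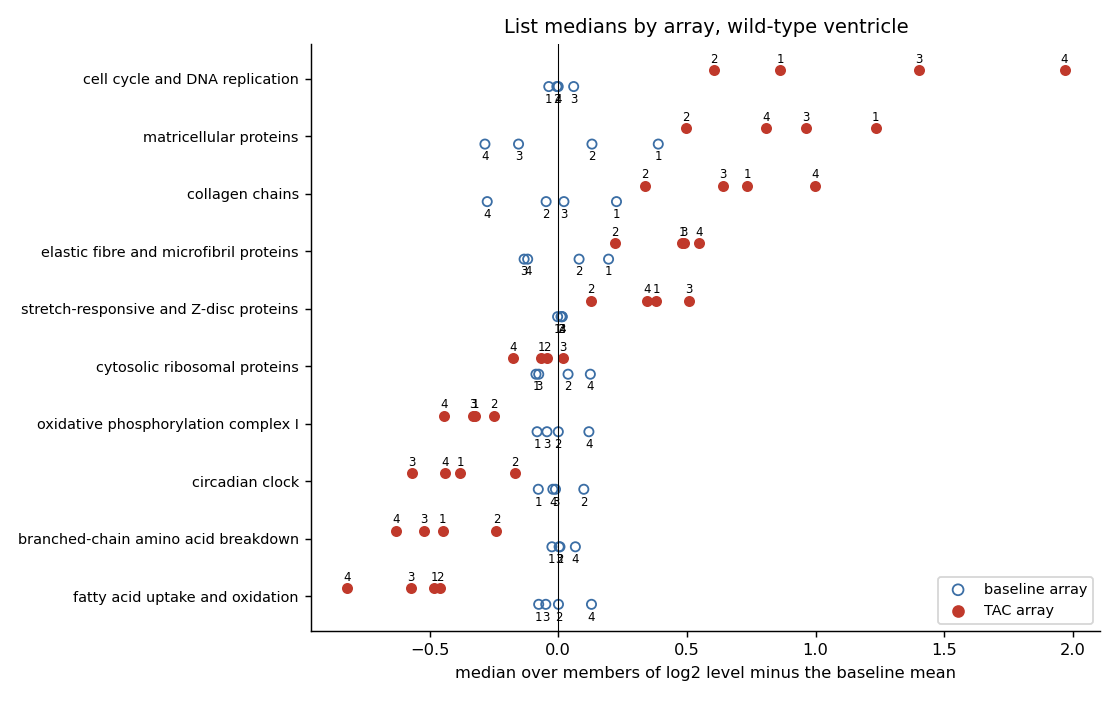
Median over the measured members of 10 gene lists of each array's log2 level minus the mean of the 4 baseline arrays (horizontal axis), with baseline arrays as open and TAC arrays as filled points labelled by replicate. TAC replicate 2 is the TAC array nearest to 0 in 9 of the 10 lists and TAC replicate 4 the farthest in 7.

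Genes of NAD, the electron carrier of these pathways, that passed the test were more often lower, but the gene of a muscle kinase that makes it rose steeply. Nmrk2, the muscle nicotinamide riboside kinase, lay at 1.84, 1.37, 2.05 and 1.14 at baseline and 4.32, 4.41, 4.86 and 5.86 after TAC, highest in replicate 4. Nampt, which recycles nicotinamide, went from 4.60, 5.13, 4.74 and 4.83 to 3.87, 4.55, 3.50 and 3.39. Nmrk2 rose by 3.26 ± 0.34 (adjusted p = 0.000124), 9.61-fold, and Nampt fell by 1.00 ± 0.20 (adjusted p = 0.00375). Nmnat3, of mitochondrial NAD, fell by 0.78 ± 0.087 (adjusted p = 0.000159) and Naprt, which starts from nicotinic acid, by 0.73 ± 0.11 (adjusted p = 0.000682). Together 3 of 25 measured genes rose and 12 fell, 48.0% against 17.6%. Risen genes of NAD numbered 2 without TAC replicate 4 or baseline replicate 3. Nadk, NAD kinase, had a 95% interval of -0.18 to 0.16.

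Of 29 nuclear receptors of the PPAR, ERR and RXR families and their partners, known regulators of these pathways, 1 rose and 10 fell. Fallen regulators numbered 6 without baseline replicate 3. Rxrg, a retinoid receptor, went from 5.03, 4.99, 5.08 and 4.88 to 3.56, 4.39, 4.08 and 3.79 (-1.04 ± 0.16, adjusted p = 0.000752), and Nr1d2, a clock-linked nuclear receptor, fell by 0.74 ± 0.15 (adjusted p = 0.00357). Thyroid hormone genes pointed both ways: Dio2, which activates the hormone, rose, and so did Dio3, which inactivates it. Dio2 lay at -0.74, -1.07, -1.64 and -2.42 at baseline and 2.71, 0.25, 2.58 and 2.17 after TAC and rose by 3.39 ± 0.65 (adjusted p = 0.00266). Dio3 lay at -3.39, -4.30, -3.52 and -5.13 at baseline and -1.39, -3.76, -1.91 and -1.25 after TAC, with overlap, and rose by 2.01 ± 0.51 (adjusted p = 0.0119). In both TAC replicate 2 stood well below the other TAC hearts. Thrb, a receptor of the hormone, fell by 0.85 ± 0.19 (adjusted p = 0.00643) and Klf9, a factor known to respond to it, by 0.58 ± 0.13 (adjusted p = 0.00577).

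The clock genes moved as opposing limbs. Arntl, the activator BMAL1, lay at -1.33, -2.74, -2.23 and -2.58 at baseline and -0.34, -0.68, -0.080 and -0.20 after TAC. Dbp, an output factor driven by it, lay at 7.08, 6.57, 6.99 and 6.29 at baseline and 4.94, 4.81, 5.73 and 5.51 after TAC, and Ciart, a repressor, at -0.0011, -0.83, 0.12 and -1.61 and -3.23, -3.49, -1.81 and -2.40. Arntl rose by 1.89 ± 0.40 (adjusted p = 0.00458), while Dbp fell by 1.48 ± 0.26 (adjusted p = 0.00157), Ciart by 2.15 ± 0.53 (adjusted p = 0.0102), Hlf, a relative of Dbp, by 1.89 ± 0.27 (adjusted p = 0.000528) and Per3, a period protein, with overlap, by 1.02 ± 0.26 (adjusted p = 0.0113). Of 24 measured genes 2 rose and 10 fell (41.7% against 17.6%). Dbp and Ciart were lower on TAC replicates 1 and 2 than on TAC replicates 3 and 4, which share a slide and a scan day. The labels used here do not give the hour at which hearts were taken, so a changed rhythm and a different hour cannot be told apart.

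Genes of ER stress and the amino acid response rose in larger share than all genes, and heat shock genes moved both ways. Of 38 genes of ER stress and the amino acid response 11 rose and 1 fell (28.9% and 2.63%, against 10.9% and 17.6% of all genes). Risen genes of this list numbered 6 without TAC replicate 4 or baseline replicate 3 and 7 without TAC replicate 3. Asns, asparagine synthetase of the amino acid response, went from 0.25, 0.074, -0.039 and 0.20 to 0.54, 0.77, 0.67 and 1.45 (0.73 ± 0.15, adjusted p = 0.00407). Mthfd2, a mitochondrial folate enzyme, was well above background on all TAC arrays and no baseline array, at least 2.95-fold higher (adjusted p = 0.000582), and Aldh1l2, the next enzyme of mitochondrial folate, fell from -1.66, -1.52, -1.50 and -1.37 to -3.50, -2.81, -3.38 and -3.43 (-1.77 ± 0.16, adjusted p = 6.65e-05). Of this ER stress list 7 members had a 95% interval within 0.3 of 0. Xbp1 (-0.032 to 0.24) and Dnajb9 (-0.24 to 0.18) of the unfolded protein response were named for that reason. Of the heat shock genes Hspa1l rose from -1.45, -1.36, -1.37 and -1.51 to 0.38, 0.050, -0.12 and 0.27 (1.57 ± 0.13, adjusted p = 4.82e-05), Hspb1 by 1.02 ± 0.13 (adjusted p = 0.000248) and Hsp90aa1 by 0.87 ± 0.098 (adjusted p = 0.000159), and Fkbp4, a co-chaperone of steroid receptors, fell by 0.61 ± 0.14 (adjusted p = 0.00733). In total 6 of 37 heat shock genes rose and 4 fell (16.2% and 10.8%, against 10.9% and 17.6% of all genes). Under quantile normalisation 13 rose.

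Among 60 antioxidant genes, of which 5 rose and 19 fell (31.7% against 17.6%), 2 glutathione transferases of the theta class fell closely together. Risen antioxidant genes numbered 2 without TAC replicate 1 or 4 or baseline replicate 3, 3 without TAC replicate 3 or baseline replicate 4 and 9 without TAC replicate 2. Gstt1 went from -0.29, 0.14, -0.34 and -0.027 to -1.79, -1.13, -1.92 and -2.04 and Gstt2 from 0.44, 0.42, 0.40 and 0.37 to -0.52, -0.61, -0.62 and -0.71. The 4 TAC values of Gstt2 were among the 6 closest sets of all genes called by over 2-fold, and both genes fell without overlap (-1.59 ± 0.15, adjusted p = 7.84e-05, and -1.02 ± 0.11, adjusted p = 0.000159). Gpx4, which guards membranes against lipid peroxides, had a 95% interval of -0.21 to 0.24. Tubulins rose in part: 12 of 42 genes of microtubules rose and 2 fell. Risen tubulin and microtubule genes numbered 8 without TAC replicate 4 or baseline replicate 2 or 3. Fallen microtubule genes numbered 0 without baseline replicate 4 and 1 without TAC replicate 1, 3 or 4 or baseline replicate 2 or 3. Tubb2b, a beta-tubulin of growing cells, went from -3.97, -3.57, -3.09 and -2.86 to -2.16, -2.02, -1.72 and -1.22 (1.59 ± 0.26, adjusted p = 0.00102) and Tuba1c rose by 0.92 ± 0.14 (adjusted p = 0.000681). Actin regulators had 21 of 52 genes higher, a count that was 14 without TAC replicate 4, such as Msn, moesin, which rose by 0.88 ± 0.15 (adjusted p = 0.00113), while its relative Ezr, ezrin, fell by 0.69 ± 0.14 (adjusted p = 0.00336).

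Of 36 genes of sterol synthesis 3 rose and 8 fell (8.33% and 22.2%, near the 10.9% and 17.6% of all genes). Risen sterol genes numbered 2 without TAC replicate 4 or baseline replicate 3. Star, which carries cholesterol into mitochondria for steroid synthesis, lay at -5.24, -6.24, -1.87 and -5.60 at baseline and -1.45, -4.06, -1.73 and -1.06 after TAC. Its rise of 2.66 ± 0.70 (adjusted p = 0.0135) came with overlap, since baseline replicate 3 was already at the level of the TAC hearts. Pmvk, of the mevalonate pathway, fell by 0.53 ± 0.081 (adjusted p = 0.000719) and Fdft1, squalene synthase, by 0.77 ± 0.16 (adjusted p = 0.00462). Of 28 genes of iron, zinc and metallothionein 5 rose and 6 fell (17.9% and 21.4%, against 10.9% and 17.6% of all genes). Risen metal genes numbered 3 without TAC replicate 1 or baseline replicate 3. Fallen metal genes numbered 3 without TAC replicate 1 or 4 or baseline replicate 1 and 4 without baseline replicate 2 or 3. Slc40a1, ferroportin, the exporter of iron, went from 1.66, 1.31, 1.27 and 1.74 to 0.13, 1.18, -0.34 and 0.67, a fall of 1.09 ± 0.26 (adjusted p = 0.00857) that was least in TAC replicate 2, and Cp, ceruloplasmin, which oxidises the exported iron, rose by 0.87 ± 0.15 (adjusted p = 0.00165). Slc39a6, a zinc transporter, rose by 1.08 ± 0.12 (adjusted p = 0.000136).

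Of 31 regulators of splicing and RNA binding 7 rose and 3 fell, 22.6% against 10.9% of all genes called higher. Risen ones numbered 3 without baseline replicate 1 and 4 without TAC replicate 1 or 3 or baseline replicate 2, 3 or 4. The fallen ones numbered 5 without TAC replicate 2 or baseline replicate 1. Rbfox1, a splicing factor of muscle and nerve, lay at 2.40, 2.32, 2.35 and 2.23 at baseline and 0.64, 1.66, 0.91 and 0.67 after TAC. Its relative Rbfox2 went from 1.04, 0.62, 1.05 and 0.62 to 1.30, 1.07, 1.38 and 1.08, with every TAC value above every baseline value. Rbfox1 fell by 1.36 ± 0.21 (adjusted p = 0.000907) and Rbfox2 rose by 0.37 ± 0.097 (adjusted p = 0.013). Igf2bp2, an RNA-binding protein of fetal tissue, rose from -2.78, -2.80, -3.18 and -2.59 to -1.33, -2.22, -1.62 and -1.03 (1.29 ± 0.23, adjusted p = 0.00159). Hdac11, a histone deacetylase, fell from -0.96, -0.71, -0.82 and -0.60 to -1.83, -1.84, -1.72 and -2.39 (-1.17 ± 0.13, adjusted p = 0.000159) and Hdac2 by 0.47 ± 0.11 (adjusted p = 0.00983). Of 38 chromatin regulators 1 rose and 7 fell, 18.4% against 17.6%. Bnip3, of mitochondrial autophagy, rose by 0.59 ± 0.13 (adjusted p = 0.00471), and Becn1 and Lamp2, of autophagy at large, had 95% intervals of -0.18 to 0.17 and -0.19 to 0.19.

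Carriers of amino acids rose in 6 of 21 measured cases and fell in 3. Fallen carriers numbered 2 without TAC replicate 3 or 4 or baseline replicate 1, 2, 3 or 4. Slc38a2, an importer of small neutral amino acids, lay at 3.79, 4.15, 4.09 and 4.61 at baseline and 5.17, 4.69, 5.21 and 5.33 after TAC. It rose by 0.94 ± 0.17 (adjusted p = 0.00162), its 3 other probes went the same way, and Slc1a4, of the same substrates, rose by 0.99 ± 0.22 (adjusted p = 0.00628). Slc36a2, a proton-coupled carrier, went down from 2.11, 2.47, 2.23 and 2.61 to 0.78, 1.53, 0.71 and 0.65 (-1.44 ± 0.24, adjusted p = 0.00128).

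Signalling receptors and enzymes of the loaded heart moved both ways. Adra1b, an alpha1-adrenergic receptor, went from 4.86, 4.33, 4.64 and 4.57 to 3.03, 3.36, 3.62 and 2.79 (-1.40 ± 0.19, adjusted p = 0.000462). Gnao1, a G protein subunit, rose by 1.49 ± 0.21 (adjusted p = 0.000539) and Grk5, a receptor kinase, by 0.87 ± 0.13 (adjusted p = 0.000582). Crem, a cAMP-responsive factor, rose from -0.27, -0.14, -0.30 and -0.016 to 0.88, 0.67, 0.79 and 0.63 (0.92 ± 0.087, adjusted p = 6.65e-05), with its 4 other probes the same way, and Pde8a, a cAMP phosphodiesterase, by 0.87 ± 0.073 (adjusted p = 4.82e-05), while Pde4a fell by 0.97 ± 0.17 (adjusted p = 0.00183). Edn3, an endothelin, rose by 1.46 ± 0.19 (adjusted p = 0.000368), Ace, angiotensin-converting enzyme, by 0.84 ± 0.17 (adjusted p = 0.00373), and Agtr1a, a receptor of angiotensin II, fell by 1.09 ± 0.25 (adjusted p = 0.0065). Rgs7, a regulator of G proteins, went from -2.34, -1.96, -2.78 and -1.63 to -5.17, -3.46, -4.53 and -4.66 (-2.28 ± 0.34, adjusted p = 0.000621). Of 55 semaphorins, ephrins and other guidance genes 3 rose and 9 fell (5.45% and 16.4%, against 10.9% and 17.6% of all genes). Risen guidance genes numbered 2 without TAC replicate 3 or 4 or baseline replicate 2 or 3. The receptor Plxnb3 fell by 1.47 ± 0.15 (adjusted p = 8.43e-05) and Plxnb1 by 1.42 ± 0.27 (adjusted p = 0.00237).

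In the vessel-related lists, Angptl1, an angiopoietin-like protein, went from -0.65, -0.68, -1.02 and -0.80 to -2.13, -1.60, -2.15 and -3.72 (-1.61 ± 0.35, adjusted p = 0.00533). Angpt1, the ligand of the endothelial receptor Tie2, went from -0.13, -0.26, -0.24 and 0.088 to -2.08, -1.16, -0.89 and -2.60 (-1.54 ± 0.37, adjusted p = 0.00865). Both fell in every TAC heart, most in replicate 4. Of 36 genes of angiogenic ligands and hypoxia 3 rose and 8 fell, 22.2% against 17.6%. Risen genes of this list numbered 1 without TAC replicate 4 or baseline replicate 2, 3 or 4 and 2 without TAC replicate 3 or baseline replicate 1. Adm, adrenomedullin, which hypoxia induces, had a 95% interval of -0.26 to 0.22. In the complement system the regulators parted: Cd55, which breaks up the convertases, rose from -2.12, -2.10, -2.16 and -1.97 to -1.46, -1.13, -1.61 and -0.83 (0.83 ± 0.12, adjusted p = 0.000597), and Cd59a, which blocks the membrane attack complex, fell from 4.74, 4.70, 4.58 and 4.77 to 4.13, 4.11, 4.04 and 3.77 (-0.69 ± 0.11, adjusted p = 0.00077). C8g, a component of that complex, fell by 1.13 ± 0.17 (adjusted p = 0.000723). Kremen1, a Wnt co-receptor regulator, rose by 1.03 ± 0.097 (adjusted p = 6.65e-05), with its other probe going the opposite way, and Wwtr1, the Hippo effector TAZ, by 0.52 ± 0.10 (adjusted p = 0.00317). Gadd45a, a growth arrest gene, fell from 2.05, 1.78, 2.04 and 1.85 to 1.05, 0.76, 1.69 and 0.63 (-0.90 ± 0.19, adjusted p = 0.0038), while Phlda3, another p53 target, rose by 0.86 ± 0.21 (adjusted p = 0.00865).

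Immune genes rose in part. Macrophage and monocyte markers had 18 of 42 genes higher and 2 lower. Risen macrophage markers numbered 10 without TAC replicate 4 and 12 without TAC replicate 1. Clec4n, a lectin receptor, went from -2.23, -2.16, -1.99 and -1.97 to -1.01, -1.78, -1.02 and -0.88, and Ms4a7 from -1.05, -0.91, -1.06 and -1.21 to -0.13, -0.67, -0.045 and 0.30, with TAC replicate 2 closest to baseline in both (0.91 ± 0.16, adjusted p = 0.00136, and 0.92 ± 0.18, adjusted p = 0.00333). Retnla, a product of alternatively activated macrophages, fell from -0.18, -1.21, -0.37 and -0.48 to -3.93, -1.53, -3.54 and -4.16 (-2.73 ± 0.48, adjusted p = 0.00152), and Clec10a, a lectin of the same state, by 0.68 ± 0.13 (adjusted p = 0.00212). Mertk, the receptor for dying cells, had a 95% interval of -0.27 to 0.15. Ccl11, eotaxin, was well above background on all baseline arrays (-1.31, -3.42, -1.86 and -3.48) and no TAC array (-6.46, -5.92, -5.88 and -6.21), at least 3.08-fold lower (adjusted p = 0.000159). Of 47 interferon-stimulated genes 13 rose and 0 fell. Risen interferon-stimulated genes numbered 7 without TAC replicate 4, 8 without baseline replicate 1, 3 or 4 and 25 without TAC replicate 2. Gbp6, a guanylate-binding protein, rose by 1.12 ± 0.21 (adjusted p = 0.00226).

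Cytokines and their receptors had 10 of 37 genes higher and 5 lower. Tnfrsf12a, the TWEAK receptor, lay at 4.07, 3.61, 4.04 and 3.53 at baseline and 6.14, 6.02, 6.11 and 6.18 after TAC, also among those 6 sets (2.30 ± 0.21, adjusted p = 6.62e-05). Ctf1, cardiotrophin-1 of the interleukin-6 family, fell by 1.08 ± 0.16 (adjusted p = 0.000705), and Il15, a cytokine made by muscle, by 1.52 ± 0.26 (adjusted p = 0.00122).

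Markers of other cells of the ventricle were read as whole lists. Of 33 endothelial markers 9 rose and 2 fell, of 20 smooth muscle and pericyte markers 3 and 4, of 28 fibroblast markers 10 and 3, and of 29 cardiomyocyte markers 3 and 6. In that order the shares were 27.3% and 6.06%, 15% and 20%, 35.7% and 10.7%, and 10.3% and 20.7%. Among all genes they were 10.9% and 17.6%. Risen endothelial markers numbered 5 without TAC replicate 4 or baseline replicate 1 or 3 and 6 without TAC replicate 1. Fallen endothelial ones numbered 1 without TAC replicate 3 or 4 or baseline replicate 1, 3 or 4. Fallen fibroblast ones numbered 2 without TAC replicate 3 or 4 or baseline replicate 1 or 3. Risen cardiomyocyte markers numbered 1 without TAC replicate 3 and 2 without TAC replicate 1 or baseline replicate 1, 2, 3 or 4. Fallen cardiomyocyte ones numbered 1 without TAC replicate 4, 2 without baseline replicate 3, 3 without baseline replicate 2 or 4 and 4 without TAC replicate 1. Median changes of the 4 lists were 0.13, -0.13, 0.15 and -0.26, and the last was -0.023 under quantile normalisation. Fibroblast markers parted: Meox1, a factor of activated fibroblasts, rose from 0.80, 0.43, 0.36 and -0.14 to 2.67, 1.55, 2.84 and 3.25 (2.22 ± 0.36, adjusted p = 0.001), and Scara5, of resting fibroblasts, fell by 1.61 ± 0.37 (adjusted p = 0.00718) with TAC replicate 2 near baseline (-1.52, 0.30, -1.90 and -1.05 against 0.53, 0.40, 0.68 and 0.67). Of the smooth muscle markers the contractile genes Myh11 and Lmod1 fell, by 1.07 ± 0.26 (adjusted p = 0.00847) and by 1.11 ± 0.26 (adjusted p = 0.00718). The 3 risen markers of that list are not named here, and its shares were near those of all genes. Of 13 epicardial and mesothelial markers 2 rose (15.4% against 10.9%) and 0 fell. Risen epicardial markers numbered 1 without TAC replicate 1, 3 or 4 or baseline replicate 2 or 3. Wt1, of the epicardium, rose from -3.66, -3.17, -3.33 and -2.82 to -2.36, -1.98, -2.54 and -1.50 (1.15 ± 0.21, adjusted p = 0.00216). Schwann and neuronal markers went both ways, with 2 risen and 3 fallen of 11 (18.2% and 27.3%, against 10.9% and 17.6%). The risen ones numbered 1 without TAC replicate 1 or 4 or baseline replicate 2 or 3. The fallen ones numbered 2 without any array but TAC replicate 2. Sox10, a Schwann cell gene, fell by 0.98 ± 0.21 (adjusted p = 0.00477). Of 9 granulocyte and mast cell markers 0 passed. Their part in the results above was not tested.

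Some genes were well above background in 1 group and not in the other. Of all genes tested 39 were well above background on every TAC array and no baseline array, and 66 on every baseline and no TAC array. Tbx15, a T-box factor of skeletal muscle development, lay at -2.06, -2.36, -2.17 and -1.12 after TAC against -4.66, -4.63, -4.82 and -5.28 at baseline, at least 5.38-fold higher (adjusted p = 0.00015). Spag5, of the mitotic spindle, was at least 4.30-fold higher (adjusted p = 0.000742) and Fhad1 at least 4.31-fold (adjusted p = 0.0011). In the other direction Pck1, of gluconeogenesis, was at least 3.76-fold lower (adjusted p = 0.00318), with its baseline values, -0.72, -2.73, -1.85 and -3.62, highest on replicate 1 as in the fat cell genes. Ly75, an endocytic receptor, was at least 3.34-fold lower (adjusted p = 0.000843) and Aqp4, a water channel, at least 2.82-fold (adjusted p = 0.000774).

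The 4 TAC hearts did not respond to the same degree. Over the 812 called genes with a change over 2-fold and a value on every array, TAC replicate 2 had the smallest change in 571 and the largest in 40, and TAC replicate 4 the largest in 449 and the smallest in 36. TAC replicates 1 and 3 had the smallest change in 100 and 105 genes. The median change of the risen genes was 1.68, 0.95, 1.65 and 1.92 in TAC replicates 1 to 4, and that of the fallen genes -1.40, -0.95, -1.38 and -1.73. Both extremes were female hearts, from different slides. Over all genes the median SD was 0.195 among the TAC arrays and 0.160 among the baseline arrays. The largest spread among these genes was in Rtn4r, a receptor of nerve cells (-6.41, -3.45, -5.79 and -2.48), followed by Inmt, a methyltransferase (1.26, 1.26, 0.49 and -2.39). Sprr1a, a stress-induced small protein, was the sixth by this measure, and in it TAC replicate 2 lay at the baseline level (-4.74) and the others between -1.97 and -1.28 (change 2.37 ± 0.64, adjusted p = 0.0156, adjusted p 0.0578 without TAC replicate 4).

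No difference of this response from that of NOS3 transgenic hearts passed the test: 0 of 15667 genes were called (0%), with 1166 at an unadjusted p under 0.05 and a lowest adjusted p of 0.242 in limma. In the 5 genes with the smallest p the estimates of the 2 genotypes had opposite signs. These genes were picked by that p, a choice that favours estimates lying apart. Ier5, an immediate early gene, had a TAC difference of 0.59 ± 0.12 in wild-type and -0.49 ± 0.12 in transgenic hearts. That of Ryr3, a calcium release channel, was -1.30 ± 0.16 and 0.13 ± 0.16, and that of Mafg, a small Maf factor, 0.36 ± 0.085 and -0.24 ± 0.085. Cd247, a T cell receptor chain, had -0.91 ± 0.17 and 0.32 ± 0.17. Nos3 had 0.41 ± 0.12 and -0.48 ± 0.12, and its wild-type call was lost without baseline replicate 1 (adjusted p 0.0572) or TAC replicate 1 (0.0569). The level of Nos3 was 7.63, 8.02, 7.91 and 7.88 in transgenic baseline hearts and 6.94, 7.77, 7.27 and 7.55 in transgenic TAC hearts. On the wild-type arrays it ran from 0.96 to 1.85. The transgenic difference therefore cannot be read as a response of the mouse's own Nos3 gene, whose transcripts were not told apart from those of the transgene. The difference of the responses was 1.08 ± 0.16 in Ier5 (adjusted p = 0.242) and -1.43 ± 0.23 in Ryr3 (adjusted p = 0.242). Leading genes of the wild-type response had estimates of the same sign in transgenic hearts: 2.08 ± 0.29 for Nppb, 2.56 ± 0.33 for Acta1, 1.67 ± 0.48 for Postn, -2.48 ± 0.41 for Pfkfb1 and 3.52 ± 0.34 for Nmrk2. Their wild-type values stand above, and none of the differences passed. These genes were picked from the text and do not stand for the size of the whole response. The median change of matricellular genes was 0.28 in transgenic and 0.89 in wild-type hearts. For cell cycle genes it was 0.62 and 1.11, and for complex I -0.15 and -0.34. For interferon-stimulated genes it was 0.40 and 0.37, and for clock genes -0.42 and -0.43. These medians were not compared by a test.

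**Figure D5:**
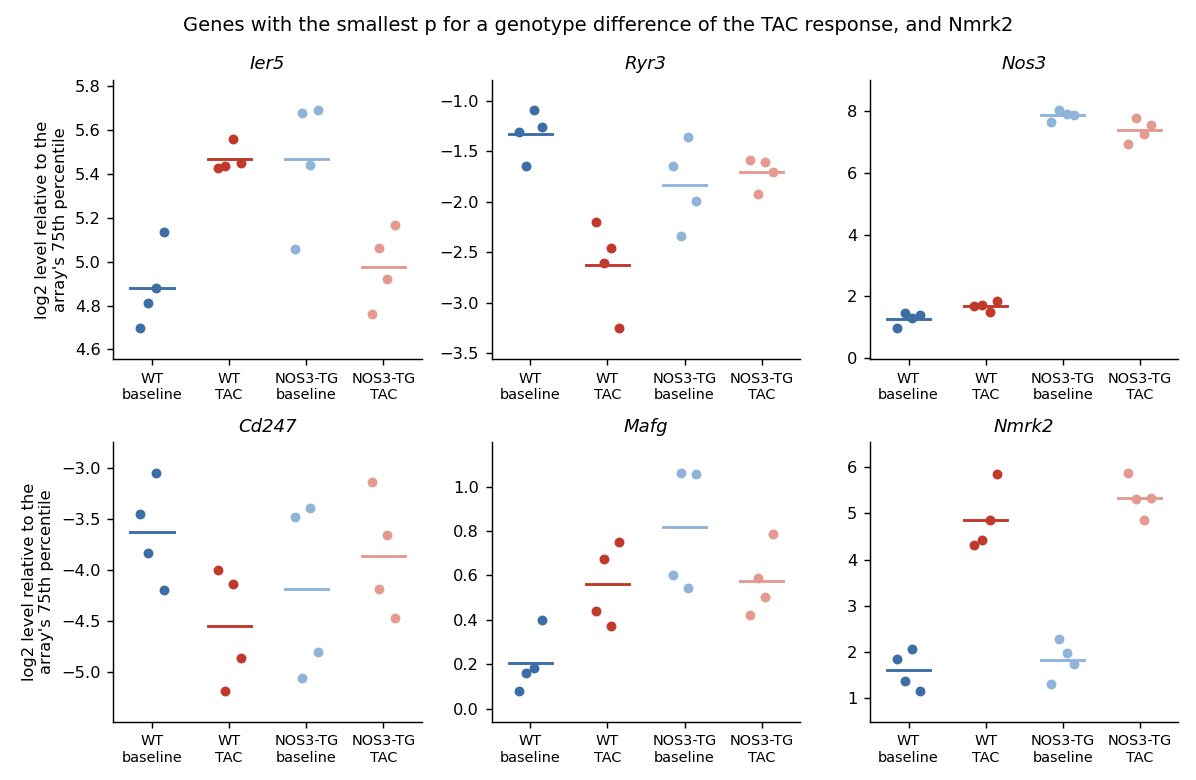
Log2 level relative to the array's 75th percentile (vertical axes) of the 5 genes with the smallest p for a difference of the TAC response between genotypes and of Nmrk2, for 4 arrays in each of wild-type baseline, wild-type TAC, NOS3 transgenic baseline and NOS3 transgenic TAC; points are arrays and bars are group means. The differences did not pass the test over all genes; Nmrk2 rises in both genotypes.

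Male and female wild-type hearts were compared within the same model. Here 0 of 15666 genes were called (0%), with 1129 at an unadjusted p under 0.05 and a lowest adjusted p of 0.271 in limma. With 2 hearts of each sex in a group the test is coarse. Atrial muscle genes were higher in every male than in every female heart, as given above, and their part in this comparison was not tested. On leaving out 1 array, which leaves a lone heart of that sex in its group whose spread is taken from the others, 120 genes passed without baseline replicate 4, 12 without TAC replicate 2, 2 without TAC replicate 3 and 1 without baseline replicate 2 or 3. In the authors' deposited values 1 gene passed. The smallest p was that of Aga, a lysosomal glycosylasparaginase, with a response of -0.38 in males and 0.77 in females, the latter without the value of baseline replicate 2, whose spot was left out as an outlier. Crnde, a long noncoding RNA, lay at -1.55, -0.98, -1.30 and -0.95 at baseline and -0.51, -1.28, -0.29 and -1.10 after TAC, with a response of 1.02 in males and -0.23 in females, and every male TAC value above and every female one below the baseline values of its sex.

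Where the array holds further probes for a gene they mostly agreed. Of 1625 called genes with other measured probes, all others went the same way in 1402 and all the opposite way in 138. Among the latter were Col2a1 (2.50 ± 0.37), Gsdme (1.36 ± 0.30), Ano10 (-1.92 ± 0.23) and Slc1a3 (1.04 ± 0.25). For these genes the direction depends on the probe. A gene here stands for its brightest probe, and the sequences of the probes were not used here.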

How the data were processed

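RNA of 16 left ventricles, 1 mouse and 1 array each, was hybridised to one-colour Agilent arrays. The authors' spot intensity files were written by Feature Extraction 9.5.1.1 of Agilent, as the submitters' processing notes name it, and, per the file headers, hold a background-subtracted intensity with no scaling between arrays. A deposited table of log2 values by the authors, of unstated normalisation, served as an alternative.

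Control spots were left out, as were outlier spots, which cost 394 probes their value on 1 or more arrays. The log2 intensity was set relative to the 75th percentile of its array, probes well above background on at least 4 of 16 arrays were kept, and each gene was represented by its probe of highest mean. Groups and sex were fitted over all 16 arrays with limma 3.58.1 (lmFit, contrasts.fit and eBayes, two-sided) in R (version 4.3.3) and its data.table package (version 1.17.8), and p-values were adjusted by Benjamini-Hochberg over all genes. The fit was tested on simulated data. A list counts a change only at an adjusted p under 0.05. Where no array of a wild-type group was well above background, a fold is given as "at least", against the lowest signal of probes well above background on each array or the probe's own signal, whichever was higher. Sequences are from RefSeq (GRCm38.p6), and motifs, tables and plots were made in Python 3.11.15 with pandas 2.3.3, numpy 2.4.6 and matplotlib 3.10.9. Gene symbols were updated through accessions for 22951 probes and through symbols or synonyms for 9768, and 8455 kept the file's name.

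Named genes are usual markers of pressure overload, up to 4 called members of a list by size in its leading direction and up to 2 in the other, and members whose 95% interval lay within 0.3 of 0. To these come the largest changes without overlap, genes above background in 1 group only, those with the largest and smallest spread among TAC arrays, the 5 with the smallest p of each interaction, and genes whose other probes disagreed. A few genes that this rule names are not reported here. Members and lists were chosen with earlier results of these data known. Replicates are separate mice, and their numbers follow the order of deposition and pair no samples. Alternatives were normexp with an offset of 50, quantile normalisation, the authors' values, other filters, the mean of probes, array weights, a variance trend, no sex term, wild-type arrays alone, slide or scan day as a block, the first scan day alone and each array left out. An atrial marker level as a covariate was added after the data were seen.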

Additional observations from a re-analysis of the deposited data

Results flagged for a closer look

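In a group of 4 arrays, a level is listed here when the gap to its nearest neighbour took up more of the group's range than Dixon's 95% critical value allows. Of 506 groups of the genes named above 17 (3.36%) met this, and chance flags about 1 in 20 groups. TAC replicate 2 was the array in 8 of the 17, TAC replicate 4 in 0.

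TAC replicate 2 lay toward baseline and apart from the other TAC hearts in 8 genes, of which 3 had risen and 5 had fallen. Among the risen ones it was lowest in the matrix gene Cilp (1.76, others 3.60 to 3.85), the lysyl oxidase Loxl1 (2.21, others 3.13 to 3.28) and the lectin receptor Clec4n (-1.78, others -1.02 to -0.88). Among the fallen ones it was highest in Ank2, ankyrin-B (0.75, others 0.16 to 0.21), the aminotransferase Gpt2 (1.78, others 1.04 to 1.12), the clock output factor Hlf (0.93, others -0.14 to -0.040), the phosphorylase kinase subunit Phkg1 (-2.51, others -3.75 to -3.60) and the amino acid carrier Slc36a2 (1.53, others 0.65 to 0.78).

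The other TAC arrays stood apart by less. TAC replicate 3 was lowest in the myosin binding protein Mybpc2 (4.58, others 4.67 to 4.69) and highest in Nmnat3 of NAD synthesis (1.73, others 1.55 to 1.58). TAC replicate 1 was highest in the small muscle protein Smpx (6.67, others 6.48 to 6.51) and lowest in the feedback inhibitor Spry4 (-2.87, others -2.37 to -2.30).

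At baseline, replicate 4 was lowest in Mybpc2 (1.97, others 3.66 to 3.84), and replicate 3 was lowest in Pmvk of the mevalonate pathway (2.47, others 2.64 to 2.66). The other 3 genes are mitotic: replicate 3 was highest in Pbk (-4.20, others -4.55), replicate 1 lowest in Spag5 (-5.61, others -5.04 to -4.98) and replicate 2 lowest in Ube2c (-6.55, others -3.13 to -2.53). Baseline values of Pbk and Spag5 were not well above background.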

How the results depend on the processing

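Of the 4457 genes called after TAC in wild-type ventricle, counts under the alternatives ran from 1255 to 5348. Lower by over 1.5 times were normexp background correction (2955), no filter on dim probes (2881), scan day as a block (2695) and the first scan day alone (1255). Leaving out 1 array gave 2911 (without TAC replicate 4) to 5028 (without TAC replicate 2). No genotype difference of the response was called in any alternative run. Male and female responses differed in 1 gene in the authors' values and in 1 on the first scan day, and in 0 to 120 on leaving out 1 array; the count was 0 in the other 11 alternatives. The share of called genes that were higher was 38.3%, and 45.9% under quantile normalisation, 43.7% in the authors' values and 35.8% with normexp.

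Of the 221 named genes called, 0 changed direction in any alternative. The number that kept its call was 208 with normexp, 219 with quantile normalisation, 215 with no filter and with the mean of all probes, 216 without the sex term, 214 with the wild-type arrays alone, 206 with scan day as a block and 137 on the first scan day alone. All 221 kept it with slide as a random block, with a variance trend and with the atrial marker covariate, and between 214 and 219 did on leaving out 1 array. The slide block cannot separate slide from load, because no slide held both baseline and TAC arrays. Calls lost with normexp were those of C8g, Car3, Cd247, Cdk2, Cidec, Col23a1, Kcnk1, Nppc, Per3, Rbfox2, Rgs7, Rtn4r and Tgfbr3. Those lost with the mean of all probes were Gsdme, Kremen1, Mef2d, Slc16a6, Slc1a3 and Tomm40. Star was the only named call lost with array weights and, with Inmt, Itga8, Mybpc2, Pln, Timp1 and Ube2c, was lost with the wild-type arrays alone. The causes were not tested.

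No paired analysis was possible because the labels carry no replicate numbers that pair mice of different groups. The number of arrays limits the precision, intact mice stand in for sham surgery, and the levels are relative to each array's own 75th percentile, so a change of most genes in 1 direction cannot be seen. Folds are lower bounds only where no array of a wild-type group was well above background. Where only some arrays of a group were, as in Loxl3 and Tnc, the change is a plain estimate. Its size then rests in part on signals near background.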
